A study of Mus musculus with 7 samples.

Results

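The slit diaphragm is the cell junction that bridges the foot processes of podocytes, the epithelial cells that cover the capillaries of the kidney's filter, the glomerulus. This account follows 9 genes of that junction, chosen by gene symbol: Nphs1, Kirrel, Cd2ap, Magi2, Ptpro, Trpc6, Plce1, Tjp1 and Fat1. All 9 were found among the 48709 mouse gene rows of the deposited counts, and 8 of them had enough reads to be tested. RNA was sequenced from whole kidneys of male mice, 4 libraries from mice with a double knockout of Hs3st3a1 and Hs3st3b1 (DKO, replicates 1 to 4) and 3 from wild-type mice (WT, replicates 1, 2 and 4). The labels give neither age, strain nor the deleted segments, and name no treatment. Each library title carries a number of its own, but nothing says that these are separate animals, so p-values measure only the spread between these libraries. The study's title concerns the kidney and its glomeruli after loss of these enzymes, which add 3-O-sulfate groups to heparan sulfate.

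At the slit diaphragm, nephrin (Nphs1) and its relative NEPH1 (Kirrel) reach across the gap between neighbouring foot processes and bind each other. Inside the cell their tails meet scaffold proteins such as CD2AP, MAGI2 and ZO-1 (Tjp1), which connect the junction to the actin cytoskeleton and to signalling enzymes. Heparan sulfate proteoglycans lie on the podocyte surface and in the basement membrane beneath it. Podocytes are a small share of the cells of a kidney. Nphs1 is largely restricted to them, whereas Tjp1, Cd2ap and Fat1 are also made by tubular and vascular cells, so that whole-kidney levels of those genes mix several cell types.

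The libraries held 18330929 to 24259400 counts. Hs3st3a1 had 1, 0, 0 and 3 reads in DKO replicates 1 to 4, against 29, 13 and 12 reads in WT replicates 1, 2 and 4, and a neomycin cassette row had 73 to 125 reads in DKO and 0 in WT, so both rows matched the labels. Hs3st3b1 had 33 to 108 reads in DKO and 56 to 112 reads in WT. The deleted segment is not given, so its whole-gene count does not check the label. Of a list of 20 podocyte markers that excludes the 9 genes, each had at least 22 reads in every library. Across the 15394 genes tested, edgeR's quasi-likelihood test called 0 at an adjusted p under 0.05 (0% of genes), while 3250 (21.1%) had an unadjusted p under 0.05 (1582 without WT replicate 4 and 2075 without DKO replicate 2). DESeq2 called 616 of the 13001 genes to which it gave an adjusted p (4.74%), with 3355 at an unadjusted p under 0.05, and limma-voom called 0, with 3146.

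The 2 promoter windows below belong to the tested members with the largest difference between groups (Tjp1) and the smallest (Ptpro). Each holds the 250 bases before a RefSeq transcript start on GRCm38.p6, and capitals mark CpG dinucleotides, which are dense in promoters of many widely expressed genes. The Tjp1 window (chr7:65371245-65371494, minus strand) lies inside the gene, in an intron of longer GENCODE M21 transcripts. The Ptpro window (chr6:137252049-137252298, plus strand) lies upstream of the gene.
Tjp1: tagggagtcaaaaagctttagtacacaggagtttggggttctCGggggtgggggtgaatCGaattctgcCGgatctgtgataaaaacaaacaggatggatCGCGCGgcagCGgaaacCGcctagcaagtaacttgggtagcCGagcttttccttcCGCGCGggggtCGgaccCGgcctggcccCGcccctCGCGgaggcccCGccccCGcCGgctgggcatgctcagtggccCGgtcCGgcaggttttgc
Ptpro: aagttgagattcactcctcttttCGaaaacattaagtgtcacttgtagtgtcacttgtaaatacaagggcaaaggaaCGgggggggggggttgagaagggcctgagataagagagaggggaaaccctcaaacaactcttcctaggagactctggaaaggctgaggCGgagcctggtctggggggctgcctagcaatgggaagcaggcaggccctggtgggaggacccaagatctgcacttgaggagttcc
The Tjp1 window held 22 CpG and the Ptpro window 3, against a median of 6 over 32851 windows of this length. Of the GC box (GGGCGG, both strands), 2 copies stood in the Tjp1 window and 0 in the Ptpro window, and 32.7% of all windows held at least 1. The windows of the other members are not printed. Those of Nphs1, Kirrel, Cd2ap and Plce1 lie largely within exons of the gene itself in GENCODE M21, and those of Magi2, Trpc6 and Fat1 do not. Their CpG counts were 5 (Nphs1), 24 (Kirrel), 31 (Cd2ap), 29 and 3 (2 windows of Magi2), 12 (Trpc6), 6 (Plce1) and 2 (Fat1). Kirrel, Cd2ap and the first Magi2 window thus held more CpG than Tjp1. A relation between CpG counts and the differences between groups was not tested. These are descriptions of sequence, and the RNA counts do not show which starts were used.

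Per kilobase of exons, the members spanned a wide range of levels, with Tjp1 highest and Trpc6 lowest. Tjp1 stood at 4.42 ± 1.09 CPM per kb in DKO (SD, n = 4) and 2.39 ± 0.294 CPM per kb in WT (SD, n = 3), where CPM is the read count relative to library size (counts-per-million scale), with sizes adjusted by TMM, a trimmed mean. Cd2ap followed at 1.40 ± 0.332 CPM per kb in DKO and 1.12 ± 0.161 CPM per kb in WT. The ranges of Tjp1 and Cd2ap over the 7 libraries did not overlap, and that of Cd2ap did not overlap with that of Ptpro, at 0.776 ± 0.0266 CPM per kb in DKO and 0.782 ± 0.0807 CPM per kb in WT. Below these, Ptpro and Nphs1, Nphs1 and Fat1, and Fat1 and Magi2 overlapped in range. Nphs1 stood at 0.735 ± 0.169 CPM per kb in DKO and 0.459 ± 0.107 CPM per kb in WT, Fat1 at 0.611 ± 0.112 CPM per kb and 0.472 ± 0.0968 CPM per kb, and Magi2 at 0.526 ± 0.130 CPM per kb and 0.384 ± 0.0357 CPM per kb. Kirrel was lower than Magi2 in 7 of 7 libraries, at 0.287 ± 0.0906 CPM per kb in DKO and 0.247 ± 0.0549 CPM per kb in WT. Plce1 was at 0.136 ± 0.0396 CPM per kb in DKO and 0.0910 ± 0.0534 CPM per kb in WT, and its range overlapped with those of Kirrel and of Trpc6.

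**Figure D1:**
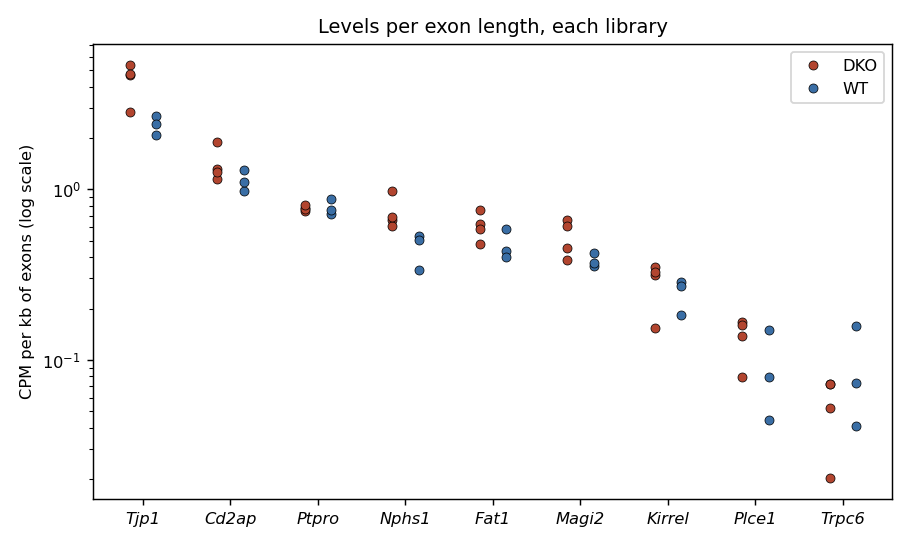
Level of each gene in CPM per kilobase of merged exons (log scale), with 1 point per library, DKO left of WT. Genes are ordered by their mean over the 7 libraries, from Tjp1 (mean 3.55 CPM per kb) to Trpc6 (mean 0.0701 CPM per kb).

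Of the adhesion molecules that span the slit, Nphs1 was higher in every DKO library than in any WT library, while Kirrel and Fat1 overlapped between groups. Nphs1 encodes nephrin (ENSMUSG00000006649, GRCm38 chromosome 7, positions 30458315 to 30487223, plus strand, 31 merged exons). It had 4.36, 6.51, 4.05 and 4.53 CPM in DKO replicates 1 to 4, against 3.53, 2.22 and 3.36 CPM in WT replicates 1, 2 and 4. The lowest DKO library lay above the highest WT library, and DKO replicate 2 was the highest of all. The means were 4.86 ± 1.12 CPM in DKO (SD, n = 4) and 3.04 ± 0.710 CPM in WT (SD, n = 3). Nephrin thus had a log2 fold change of 0.67 (SE 0.26, 95% interval 0.096 to 1.25), with an unadjusted p of 0.0263 and an edgeR adjusted p of 0.195 over all genes, so it did not pass the threshold of 0.05. Between 42 and 124 reads per library stood behind these values.

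Kirrel, the nephrin-binding immunoglobulin protein NEPH1 (ENSMUSG00000041734, chromosome 3, positions 87078593 to 87174747, minus strand), had 1.14, 2.63, 2.36 and 2.45 CPM in DKO replicates 1 to 4. The WT libraries had 2.13, 1.38 and 2.03 CPM. DKO replicate 1 was the lowest library of all, and the other DKO libraries were above every WT library. The log2 fold change was 0.21 (SE 0.35, 95% interval -0.55 to 0.97, edgeR adjusted p 0.745), on 26 to 60 reads per library. Fat1, a giant cadherin that takes part in actin organisation at the podocyte junction (ENSMUSG00000070047, chromosome 8, positions 44935447 to 45052257, plus strand), had 7.53, 11.8, 9.79 and 9.18 CPM in DKO and 6.80, 9.10 and 6.25 CPM in WT. DKO replicates 2, 3 and 4 exceeded every WT library, DKO replicate 4 only by a small margin over WT replicate 2. The log2 fold change of Fat1 was 0.37 (SE 0.21, 95% interval -0.091 to 0.84, edgeR adjusted p 0.319).

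The level of Kirrel relative to Nphs1, both per kilobase, was nearly the same in the 3 WT libraries and lower, with more scatter, in DKO. The ratio was 0.233, 0.358, 0.517 and 0.479 in DKO replicates 1 to 4, against 0.535, 0.549 and 0.537 in WT. All DKO ratios were below all WT ratios. The ratio of Ptpro to Nphs1 also did not overlap, at 0.762 to 1.26 in DKO and 1.35 to 2.25 in WT. Those of the other 6 members overlapped between groups. These ratios share the Nphs1 counts and are given as values without a test. Since Nphs1 was higher in every DKO library, a gene with equal levels in both groups also has a lower ratio in DKO. The share of all genes whose ratio to Nphs1 does not overlap was not determined. With 26 to 60 Kirrel reads and 42 to 124 Nphs1 reads per library, the scatter of the ratio is not read further.

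**Figure D2:**
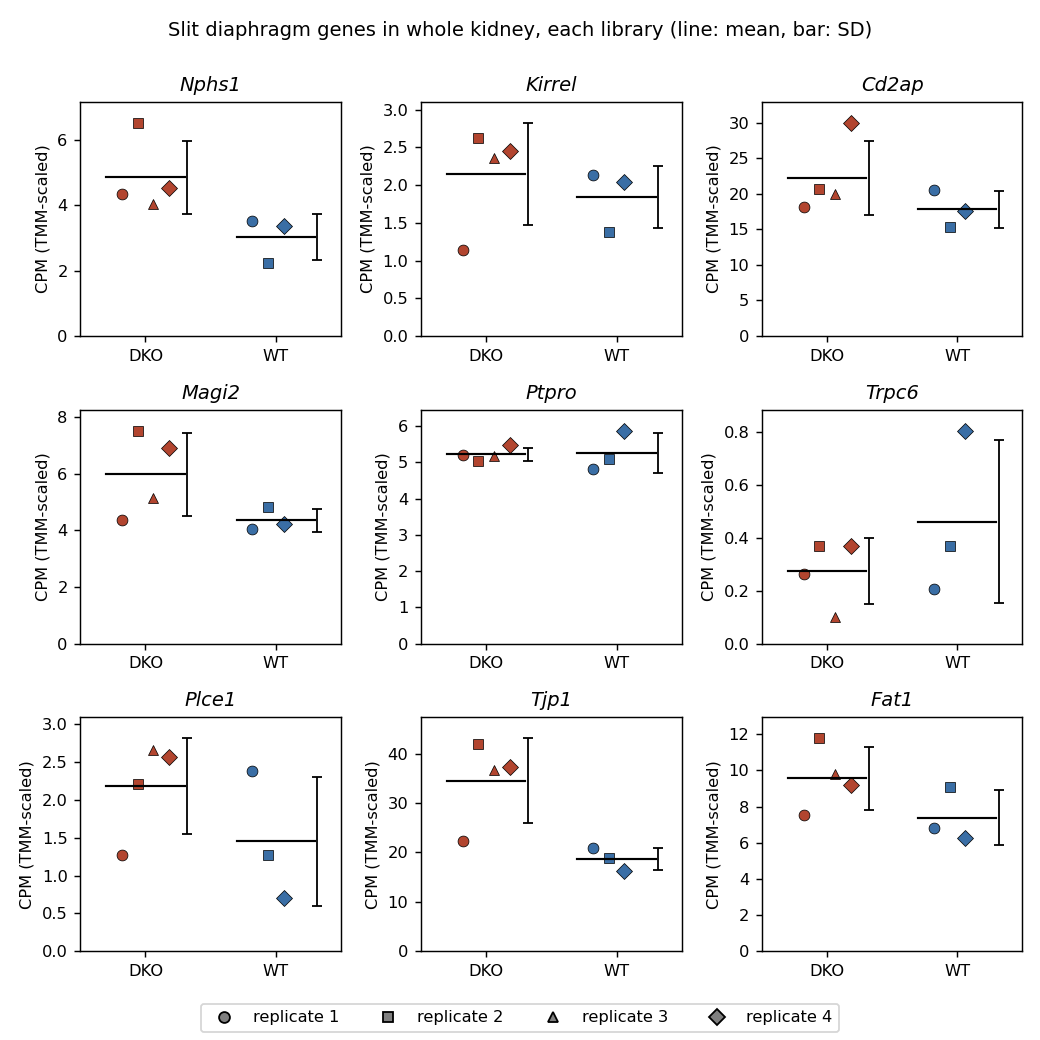
Level of each of the 9 genes in TMM-scaled CPM in each library, DKO left of WT, with symbols for replicate numbers, lines for group means and bars for the SD. Tjp1 and Nphs1 are the genes whose groups do not overlap, and DKO replicate 1 is the lowest DKO library in 6 of the 9 panels.

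Among the scaffold and adaptor proteins, Tjp1 was higher in all 4 DKO libraries than in any WT library, and Magi2 and Cd2ap overlapped. Tjp1 encodes ZO-1, a PDZ-domain scaffold of tight junctions that binds the tail of NEPH1 (ENSMUSG00000030516, chromosome 7, positions 65296165 to 65527781, minus strand, 31 merged exons). It had 22.2, 42.0, 36.6 and 37.2 CPM in DKO replicates 1 to 4, against 20.9, 18.8 and 16.3 CPM in WT replicates 1, 2 and 4. DKO replicate 1 was close to the highest WT library, and the other DKO libraries were well above. The means were 34.5 ± 8.54 CPM in DKO (SD, n = 4) and 18.7 ± 2.30 CPM in WT (SD, n = 3), a fitted fold of 1.85. The log2 fold change of Tjp1 was 0.88 (SE 0.22, 95% interval 0.41 to 1.36). Tjp1 ranked 97 of the 15394 genes by p (unadjusted p 0.00177), and its edgeR adjusted p was 0.163. DESeq2 called it (adjusted p 0.0258), as did edgeR without the filter on low counts (adjusted p 0.0481). Over all alternatives its adjusted p lay between 0.0258 and 0.494. Without DKO replicate 1 the log2 fold change was 1.05 (adjusted p 0.0675).

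Magi2, a membrane-associated guanylate kinase that binds nephrin (ENSMUSG00000040003, chromosome 5, positions 19227036 to 20704792, plus strand), had 4.36, 7.51, 5.13 and 6.90 CPM in DKO and 4.05, 4.82 and 4.21 CPM in WT. DKO replicate 1 lay within the WT range and the other 3 above it. Its log2 fold change was 0.45 (SE 0.24, 95% interval -0.066 to 0.97, edgeR adjusted p 0.286). Cd2ap, an adaptor that connects nephrin to actin and to phosphoinositide 3-kinase signalling (ENSMUSG00000061665, chromosome 17, positions 42792951 to 42876665, minus strand), had 18.2, 20.7, 19.99 and 29.96 CPM in DKO and 20.5, 15.4 and 17.6 CPM in WT. DKO replicate 4 stood clear of the WT range, DKO replicate 2 was just above it, and the other DKO libraries lay within it. Its log2 fold change was 0.32 (SE 0.20, 95% interval -0.12 to 0.76, edgeR adjusted p 0.365).

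Of the enzymes and the channel of the complex, Ptpro had nearly equal levels in both groups, and Plce1 and Trpc6 overlapped between groups. Ptpro, a receptor-type tyrosine phosphatase of the podocyte surface also called GLEPP1 (ENSMUSG00000030223, chromosome 6, positions 137252319 to 137463233, plus strand), had 5.19, 5.04, 5.18 and 5.47 CPM in DKO and 4.83, 5.08 and 5.87 CPM in WT. The 4 DKO libraries sat inside the WT range. Its log2 fold change was -0.011 (SE 0.19, edgeR adjusted p 0.979), and its 95% interval ran from -0.42 to 0.40. Plce1, phospholipase C epsilon, whose human gene is mutated in an early-onset nephrotic syndrome (ENSMUSG00000024998, chromosome 19, positions 38481109 to 38785030, plus strand), had 1.28, 2.21, 2.67 and 2.57 CPM in DKO and 2.39, 1.27 and 0.710 CPM in WT. DKO replicates 1 and 2 lay within the WT range and DKO replicates 3 and 4 above it. Its log2 fold change was 0.58 (SE 0.43, 95% interval -0.35 to 1.52, edgeR adjusted p 0.439). For Plce1 single WT libraries moved this value, which was 1.13 without WT replicate 1 (unadjusted p 0.0287, adjusted p 0.222) and 0.25 without WT replicate 4 (adjusted p 0.829).

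Trpc6, a calcium-permeable channel of the junction (ENSMUSG00000031997, chromosome 9, positions 8544142 to 8680741, plus strand), received 6, 7, 2 and 9 reads in DKO replicates 1 to 4, against 4, 7 and 17 reads in WT. This was 0.264, 0.368, 0.103 and 0.367 CPM in DKO and 0.208, 0.371 and 0.804 CPM in WT. WT replicate 4 held the highest value and DKO replicate 3 the lowest, and the groups overlapped. Trpc6 did not pass the filter on low counts. In the fit without that filter its log2 fold change was -0.72 (edgeR adjusted p 0.604), and no difference was detectable at this depth.

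As a group, 7 of the 8 tested members had a log2 fold change above 0, where 53.2% of all genes tested did, and the median was 0.41, against 0.036 over all genes. Of the 8, 0 were called by edgeR (0% of all genes) and Tjp1 was called by DESeq2, which called 1.77% of genes as higher. Nphs1 and Tjp1 had an unadjusted p under 0.05 with a higher level in DKO, as did 9.86% of all genes. The same genes were those whose groups did not overlap with DKO higher, as was so for 8.34% of all genes, and 0 of the 8 had DKO lower without overlap (9.04% of all genes). Without DKO replicate 2 or WT replicate 2 the unadjusted p of Nphs1 was 0.0843 or 0.112. In bulk kidney RNA, more podocytes, more RNA per podocyte and the levels in other cells that also make some members cannot be told apart.

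**Figure D3:**
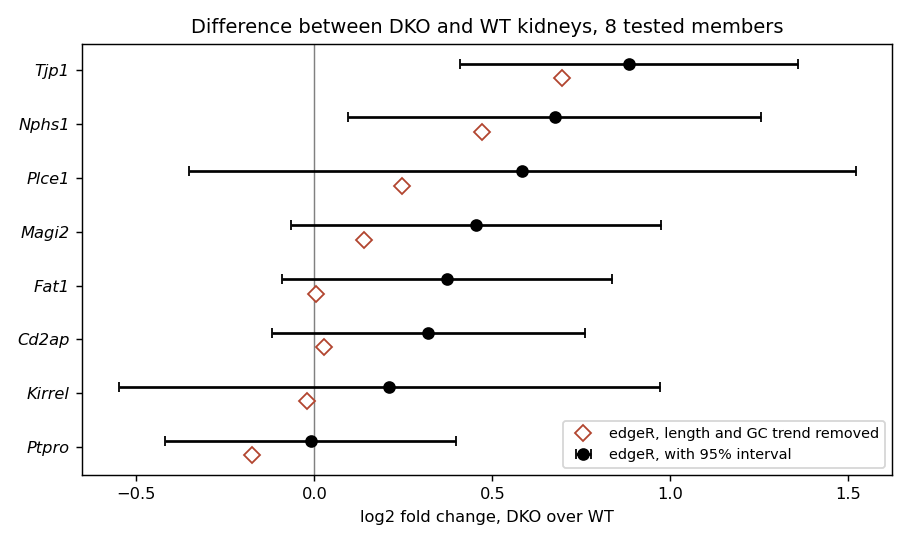
Log2 fold change, DKO over WT, of the 8 tested members. Filled points are edgeR estimates with 95% intervals, and open diamonds are estimates after a trend on gene length and GC content was removed. Tjp1 (0.88 and 0.70) and Nphs1 (0.67 and 0.47) stay to the right, while Cd2ap (0.32 and 0.028) and Fat1 (0.37 and 0.0040) move next to 0.

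The members are long genes, and fold changes moved with gene length across the whole data set. Exon length of the 8 tested members was between 6620 nt (Nphs1) and 15998 nt (Plce1), all within the longest of 4 equal groups of the genes tested (6378 nt or more). In that group 76.7% of genes were higher in DKO and the median log2 fold change was 0.25, against 28.1% and -0.27 in the shortest group (2365 nt or less). With a smooth trend on length and GC content removed from each library, the median of the members was 0.084. Tjp1 then had a log2 fold change of 0.70 (edgeR adjusted p 0.225) and Nphs1 0.47 (adjusted p 0.372). Plce1 had 0.25, Magi2 0.14, Cd2ap 0.028, Fat1 0.0040, Kirrel -0.022 and Ptpro -0.17. The fitted trend at the members was -0.062, 0.22, 0.12 and 0.15 in DKO replicates 1 to 4, against -0.097, -0.14 and -0.19 in WT (log2, relative to the mean of the 7 libraries). DKO replicate 1 had the lowest trend value of its group and was also the lowest DKO library in 6 of the 9 members. The trend was fitted to these same libraries, and a link between these values was not tested. The share of all genes that are lowest in this DKO library is not given here.

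**Figure D4:**
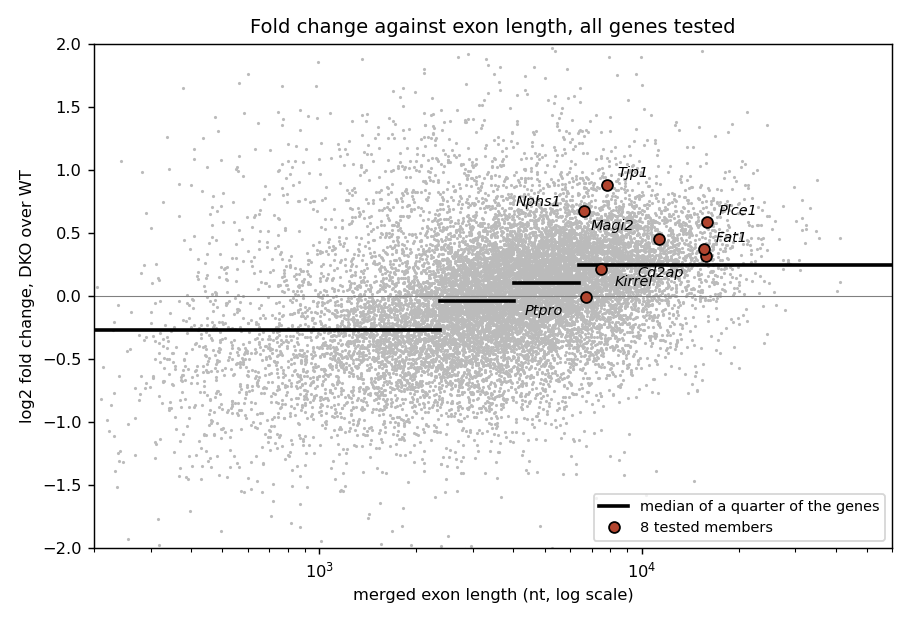
Log2 fold change, DKO over WT, against merged exon length (log scale) for all genes tested (grey; a few genes lie outside the axes), with the 8 tested members in red and black lines for the medians of 4 equal groups by length. The median is -0.27 in the shortest group and 0.25 in the longest, and Tjp1, Nphs1, Plce1, Magi2, Fat1 and Cd2ap lie above the line of the longest group.

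Other glomerular genes were read beside the members. Of 20 podocyte markers outside the complex, 13 were higher and 7 lower in DKO, with a median log2 fold change of 0.19 (0.057 with the length and GC trend removed). Of these, edgeR called 0 and DESeq2 called 1, Podxl. By the rule for list genes, the 3 with the highest level per length were Col4a3, Clic3 and Arhgap24. Col4a3, a collagen chain of the glomerular basement membrane, had 20.4, 6187, 5201 and 9468 CPM in DKO replicates 1 to 4. It had 20.6, 2702 and 1491 CPM in WT replicates 1, 2 and 4, so both replicate 1 libraries were low. Clic3, an intracellular chloride channel protein, averaged 41.3 ± 2.87 CPM in DKO and 44.8 ± 6.57 CPM in WT (SD, n = 4 and n = 3). Arhgap24, a regulator of Rac in podocytes, averaged 253 ± 23.9 CPM in DKO and 258 ± 10.6 CPM in WT. Without Col4a3, which was left out after its values were seen, the summed level of the list was 621, 657, 693 and 684 CPM in DKO replicates 1 to 4 and 671, 611 and 707 CPM in WT. The sums overlapped between groups, and Arhgap24 alone made up a large part of each. Per kilobase, Nphs1 was 0.397% to 0.687% of the summed level in DKO and 0.246% to 0.327% in WT. The largest terms of that per-kilobase sum were Clic3, Arhgap24, Tcf21 and Pdpn. They averaged 42.3, 29.0, 25.2 and 14.98 CPM per kb, against 0.616 CPM per kb for Nphs1. Their log2 fold changes were -0.12, -0.031, -0.79 and -0.15. Which cells made these RNAs was not tested, so the sums and percentages are not read as podocyte content. The part of podocyte content in the Nphs1 values was not tested. Podxl, the podocalyxin of the podocyte surface coat, was named after its values were seen. It had 49.0, 52.8, 57.2 and 54.5 CPM in DKO and 40.6, 36.9 and 33.6 CPM in WT, a log2 fold change of 0.53 (SE 0.14, edgeR adjusted p 0.163, DESeq2 adjusted p 0.0356).

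Markers of other kidney cells, some of which also make members of the complex, were described in the same way, with the median log2 fold change and then the summed levels in DKO and in WT. Parietal epithelium markers were higher in 8 of 8 (median 0.50, summed level 309 to 425 CPM in DKO and 242 to 293 CPM in WT), and endothelial markers in 8 of 10 (0.18, 441 to 549 CPM and 392 to 570.2 CPM). The parietal median was 0.30 without WT replicate 4. The endothelial median was -0.020 with the length and GC trend removed and -0.0072 without WT replicate 2. Mesangial markers were higher in 6 of 9 (0.013, 193 to 234 CPM and 155 to 189 CPM) and proximal tubule markers in 8 of 10 (0.28, 8075 to 8911 CPM and 5715 to 7837 CPM). Loop of Henle markers were higher in 3 of 8 (-0.19, 4954 to 7399 CPM and 6621 to 10478 CPM) and distal tubule and collecting duct markers in 4 of 12 (-0.10, 1929 to 2839 CPM and 1738 to 2762 CPM). Without DKO replicate 1 the distal median was 0.018. Of 9 tested immune cell markers 1 was higher (-0.81, 56.9 to 114 CPM and 104 to 189 CPM), with a median of -0.32 without WT replicate 4. The median exon length of the immune list was 1815 nt, within the shortest group of genes, where the median was -0.27. With the length and GC trend removed, medians were 0.37 (parietal), 0.088 (mesangial), 0.19 (proximal tubule), -0.27 (loop), -0.16 (distal) and -0.54 (immune). In all of these lists 0 genes were called by edgeR, while DESeq2 called 2 proximal tubule markers and 1 each of the loop, distal and immune lists. The parietal, mesangial and proximal tubule sums did not overlap between groups, and their part in the Tjp1 and Nphs1 results was not tested. How often sums of other gene lists do so is not given here. Singly, 2 of 8 parietal, 0 of 9 mesangial and 3 of 10 proximal tubule markers had DKO higher without overlap, against 8.34% of all genes. The 3 parietal markers most abundant per length were Krt18, Krt8 and Pax8. Krt18 and Krt8, keratins of simple epithelia, had log2 fold changes of 0.041 and 0.057 with overlapping groups. Pax8, a kidney transcription factor, had 0.67 without overlap (mean 139 CPM in DKO and 87.4 CPM in WT). Pax8 and Krt18 made up a large part of the parietal sums. Which cells made the RNAs of these lists was not tested, so the sums are not read as cell content. Of the 3 proximal tubule transporters, Slc34a1 had 0.51 without overlap, and Slc27a2 and Slc22a6 had 0.31 and 0.11 with overlap. Of the loop markers, Umod and Kcnj1 had log2 fold changes of -0.68 and -0.54 with overlap, and Cldn10 had -0.38 without overlap. Of the endothelial markers, Egfl7 had -0.57, Eng 0.059 and Ehd3 0.15, each with overlapping groups. Of the immune markers, C1qb had -1.12 with overlap (DESeq2 adjusted p 0.0358), C1qa -0.81 without overlap and Cd68 -0.055 with overlap.

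Relatives of the members were read from a list of paralogs. Of 20 listed paralogs 13 were tested, of which 11 were higher and 2 lower in DKO (median 0.27, and 0.082 with the length and GC trend removed), and 0 were called by edgeR or DESeq2. Their median exon length was 8352 nt, within the longest group of genes, where 76.7% were higher and the median was 0.25. Ptprj, a receptor phosphatase related to Ptpro, averaged 27.9 ± 6.19 CPM in DKO and 17.4 ± 3.46 CPM in WT (log2 fold change 0.68, SE 0.21, edgeR adjusted p 0.163). Magi1 averaged 24.5 ± 4.81 CPM in DKO and 30.5 ± 11.6 CPM in WT (log2 fold change -0.32, adjusted p 0.457). Kirrel2, another nephrin relative that starts 625 nt from Nphs1 on the opposite strand, received 5, 2, 6 and 6 reads in DKO and 2, 2 and 3 reads in WT, too few to test. An antisense gene overlapping Nphs1, Nphs1os, received at most 1 read in any library, and the overlapping pseudogene Rps12-ps4 at most 2. How reads in the shared 597 nt and 183 nt of exon were assigned is not known, so reads of these genes cannot be told from those of Nphs1 there.

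Genes around the complex showed no call by edgeR. Of 19 genes of nephrin phosphorylation and adaptor signalling 11 were higher and 8 lower (median 0.041, and -0.059 with the length and GC trend removed). Bcar1, the docking protein p130Cas, averaged 59.4 ± 7.25 CPM in DKO and 49.96 ± 2.71 CPM in WT, and the kinases Pak1 and Pak2 had log2 fold changes of 0.19 and 0.43. Of 19 tested polarity and junction partners 15 were higher and 4 lower (median 0.14, and -0.046 with the trend removed). Cdc42, the small GTPase that controls polarity and actin, averaged 527 ± 42.5 CPM in DKO and 641 ± 34.0 CPM in WT (log2 fold change -0.28, edgeR adjusted p 0.311), and the groups did not overlap. Crb3, a Crumbs polarity protein, averaged 67.5 ± 4.61 CPM in DKO and 96.5 ± 22.5 CPM in WT (-0.51, edgeR adjusted p 0.164), also without overlap. The junction protein F11r had a log2 fold change of 0.14 with overlap. Of these 19 partners, 3 had DKO higher and 3 had DKO lower without overlap, against 8.34% and 9.04% of all genes.

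Of 18 genes that connect the junction to actin 11 were higher and 7 lower (median 0.15, and 0.066 with the length and GC trend removed). Actn4, an actin crosslinker, averaged 1170 ± 185 CPM in DKO and 919 ± 179 CPM in WT (log2 fold change 0.35, edgeR adjusted p 0.328). Capzb, an actin capping subunit, had a log2 fold change of -0.54 without overlap, as 1 of the 18 with DKO lower (9.04% of all genes). Enah, an actin polymerase cofactor named after its values were seen, was the gene of this list that DESeq2 called (adjusted p 0.0249). It had 10.3, 15.7, 11.7 and 10.9 CPM in DKO and 6.02, 7.52 and 6.20 CPM in WT (edgeR log2 fold change 0.88, adjusted p 0.163, and 0.48 for the log2 fold change with the length and GC trend removed). Of 18 genes of TRPC6 calcium and phospholipase signalling 12 were higher and 6 lower (median 0.17, and -0.042 with the trend removed). Rcan1, a calcineurin regulator, averaged 109 ± 47.8 CPM in DKO and 115 ± 29.9 CPM in WT. Rap1b had a log2 fold change of -0.27 without overlap, as 1 of 2 such genes of the list with DKO lower. Ppp3r1 had 0.30 with overlap.

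The genes whose profile over the 7 libraries lay nearest to that of Nphs1 were not members of the complex. By root mean square difference of centred log2 CPM, the nearest were Adcy5 (0.118), Lancl3 (0.140), Gdpd5 (0.161), Arhgap31 (0.167) and Ulk4 (0.1805). Adcy5, an adenylate cyclase, averaged 4.13 ± 0.895 CPM in DKO and 2.42 ± 0.428 CPM in WT. The nearest member was Magi2 (0.329), ranked 875 among the genes tested, followed by Tjp1 (0.333, rank 960), Cd2ap (0.354, rank 1488) and Fat1 (0.391, rank 2642). Kirrel (0.407), Ptpro (0.439) and Plce1 (0.573) were farther away. The measure rests on 7 libraries, all of which were also used in the comparison of groups. Reads per library were few for Nphs1 (42 to 124), Kirrel (26 to 60) and Plce1 (15 to 63). How far the scatter of low counts sets these distances and ranks was not tested.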

How the data were processed

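Whole-kidney RNA was sequenced in 4 DKO and 3 WT libraries with an unstranded tagmentation library kit, per the labels' protocols. The aligner STAR 2.5.2a is named, per the submitters' processing notes, beside DESeq2, edgeR, limma and the builds GRCm38, mm10 and GRCh38, with no roles stated. The counter, annotation release and treatment of strand were not given in the sources used here. Files the authors deposited hold raw counts per Ensembl gene, used here for every value, and a TMM-scaled CPM signal table, used for gene symbols. Of the raw rows, 24 are transgene or spike-in sequences (at most 0.000697% of a library) and were left out.

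The test was edgeR 4.0.16 (R 4.3.3; quasi-likelihood F test, robust, TMM, filterByExpr with a minimum count of 10 and a minimum total count of 15) over 15394 genes, two-sided, with Benjamini-Hochberg adjustment over all of them and a threshold of 0.05. Standard errors and 95% intervals derive from the F statistic. CPM use TMM-scaled library sizes, and log2 CPM a prior count of 2. Alternatives were DESeq2 1.42.0, limma-voom (limma 3.58.1), DESeq2 size factors in edgeR, no filter, leaving out each library, a replicate block, and an offset from splines (4 degrees of freedom per term) on exon length and GC. Positions and exon lengths came from GENCODE M21 (GRCm38), which matched 48349 of 48709 genes, and promoters from RefSeq (GRCm38.p6). The fits were tested on simulated data.

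Counts carry no molecular identifiers. The members and lists were chosen with earlier results of these data known. All 9 members were named, with up to 3 genes of each other list, those highest in CPM per kb where none was called, the 5 genes nearest to Nphs1 and both targeted genes. Some list genes that the rule names are not reported here.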

Additional observations from a re-analysis of the deposited data

Results flagged for a closer look

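Serpine2, a protease inhibitor on the mesangial list, had 56.1, 57.3 and 56.3 CPM in DKO replicates 1 to 3 and 44.0 CPM in DKO replicate 4, against 31.7, 56.1 and 32.1 CPM in WT replicates 1, 2 and 4. DKO replicate 4 stood apart from the other DKO libraries, with a gap that was 0.910 of the range of the group, above Dixon's critical value of 0.829 for 4 samples. Chance gives such a gap in about 1 in 20 groups. No slit diaphragm gene passed that value in DKO, where the ratios were between 0.243 (Magi2) and 0.819 (Kirrel), and groups of 3 were not examined.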

How the results depend on the processing

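The count of genes called, 0 in the edgeR fit of all libraries, was 616 with DESeq2, 66 with no filter on low counts, 0 to 7 when each library was left out (7 without DKO replicate 1, 1 without WT replicate 2), 0 with a replicate block and 1 with the replicate block together with the length and GC offset. Deviations of the 6 libraries that share replicate numbers had correlations of -0.133, 0.164 and 0.135 for replicates 1, 2 and 4. For DKO and WT libraries with unlike numbers the correlations were -0.229 to 0.162. The numbers were thus not taken to pair the libraries, and the replicate block changed no call of a member (Tjp1 0.83, adjusted p 0.264). Col4a3, however, was low in both replicate 1 libraries, at 20.4 CPM in DKO and 20.6 CPM in WT. The median log2 fold change of the members, 0.41, was 0.084 with the length and GC offset, 0.13 with that offset and the replicate block, and 0.30 to 0.53 when each library was left out. Tjp1 was called with DESeq2 (0.86) and with no filter on low counts (0.89), and Nphs1 in none of 14 alternatives, where its log2 fold change was 0.47 to 0.78. Cd2ap, Magi2, Plce1 and Fat1 were above 0 in all 14, but with the length and GC offset Cd2ap (0.028) and Fat1 (0.0040) were close to 0, and Plce1 was 0.25 to 1.13 when each library was left out. Ptpro, at -0.011, changed sign without DKO replicate 2 (0.0098), DKO replicate 3 (0.0041) or WT replicate 4 (0.073) and with the replicate block (0.0077), within -0.085 to 0.073 when each library was left out. Kirrel, at 0.21, changed sign with the length and GC offset (-0.022) and with that offset and the replicate block (-0.10). The count at an unadjusted p under 0.05, 3250, was 1785 with the replicate block and the offset, and the part of it higher in DKO, 1518, was 966 with the offset. With the offset the list medians turned below 0 for nephrin signalling, polarity, TRPC6 signalling and endothelium. When each library was left out, list medians were 0.036 to 0.21 (mesangial), -0.98 to -0.32 (immune) and 0.083 to 0.22 (podocyte). They were 0.30 to 0.56 (parietal), 0.020 to 0.10 (nephrin signalling), 0.077 to 0.18 (polarity) and 0.10 to 0.20 (actin). The cause of these shifts was not tested. Read counts were low for Trpc6 (2 to 17 per library), Plce1 (15 to 63) and Kirrel (26 to 60).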
